A study of Mus musculus with 10 samples.

Results

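Oxidative phosphorylation is carried out in mitochondria by 5 protein complexes, and the genes described here are those in the nucleus that encode their subunits. They were chosen by symbol alone, as the Nduf genes of complex I without the Ndufaf assembly factors, Sdha to Sdhd of complex II, the Uqcr genes and Cyc1 of complex III, the Cox4i, Cox5, Cox6, Cox7 and Cox8 genes of complex IV and the Atp5 genes of complex V, with pseudogenes left out. This gave 86 of 24520 genes, with 38 in complex I, 4 in complex II, 9 in complex III, 18 in complex IV and 17 in complex V. Each gene is represented by its transcript row of highest mean RPKM (reads per kilobase of transcript, scaled to the mapped reads of the library). For 71 of the 86 there was 1 row. Comparisons were run on 81 of them, those that reached 1 RPKM in 2 or more libraries.

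The RNA came from the mouse V6.5 line of embryonic stem cells (ESCs), kept on irradiated fibroblast feeders, and from neural progenitor cells (NPCs) derived from that line through embryoid bodies. The ESC groups received a control siRNA against luciferase or a siRNA against Cbx3, which encodes the heterochromatin protein HP1 gamma. The NPC groups received the control siRNA, the Cbx3 siRNA or a siRNA against Med26, a subunit of the Mediator complex. NPCs were made by keeping embryoid bodies for 4 days and plating their dissociated cells, and they were transfected on day 5 and lysed for RNA on day 8. The timing of the siRNA in ESCs is not stated in the labels. Each of the 5 groups has 2 libraries labelled as biological replicates, all from 1 cell line, and p-values measure the spread between these libraries only. Depth estimated from the steps of low RPKM values was 23300000 to 63500000 reads per library. The libraries of an NPC group were closer to each other (Pearson r over genes of 0.995 to 0.996) than those of an ESC group (0.949 in both). The ESC replicates stand apart in many of the genes described here, so some results that rest on them are also given without either pair. Cbx3 RNA was 9.37 and 9.65 RPKM in control NPCs and 0.425 and 0.248 RPKM after its siRNA, and Med26 RNA was 7.56 and 6.78 RPKM in control NPCs and 3.04 and 3.07 RPKM after its own. In ESCs Cbx3 RNA was 13.99 and 56.4 RPKM in the control libraries and 1.01 and 1.96 RPKM after the siRNA. The NPC libraries still held Pou5f1, a marker of pluripotent cells, at 380 to 497 RPKM (251.7 to 536 RPKM in ESCs), and the neural progenitor markers Pax6 and Sox1 at 1.12 to 4.53 and 4.71 to 11.5 RPKM. Nes, another neural progenitor marker, was at 30.02 to 40.41 RPKM in NPCs and at 4.714 to 15.36 RPKM in ESCs. The pluripotent markers Esrrb, Klf4, Zfp42 and Sox2 were lower in every NPC library than in any ESC library. Esrrb was at 0.9133 to 2.14 RPKM in NPCs and at 13.69 to 57.96 RPKM in ESCs. The ranges of Nanog overlapped.

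Complexes I and II take electrons from NADH and succinate and pass them through ubiquinone to complex III, cytochrome c and complex IV, where oxygen is reduced. Complexes I, III and IV pump protons across the inner membrane, and complex V, the ATP synthase, uses the gradient to make ATP. Most subunits are encoded in the nucleus and a few in the mitochondrial genome, so both sets of genes must be expressed for a complete chain. Several complex IV subunits have isoform genes that are used in heart and skeletal muscle, lung or testis. Pluripotent cells are known to rely strongly on glycolysis, and respiration gains weight as cells differentiate.

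All 5 complexes were expressed in every library, and their RNA covered a wide range of levels. The summed level of the 86 genes was 7810 to 9286 RPKM per library, or 2.29% to 2.87% of the summed RPKM of all genes. Mean levels over the 10 libraries were at least 100 RPKM for 23 genes and at least 10 RPKM for 77. Complex V had the highest sum, 2677 to 3355 RPKM, followed by complex I with 2237 to 2725 RPKM, complex IV with 1439 to 1753 RPKM, complex III with 873.5 to 1105 RPKM and complex II with 285.7 to 369.3 RPKM. Only the ranges of complexes I and V overlap, at their ends, with Ndufa4 counted by its symbol in complex I.

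The genes of highest mean level were those for the catalytic head of the ATP synthase. Atp5b, the beta subunit that forms ATP, had 815.1 to 1103 RPKM and Atp5a1, the alpha subunit, 502.1 to 711 RPKM. Cox4i1, a regulatory subunit of complex IV, was the only other gene with a mean above 500 RPKM, at 438 to 628 RPKM. In complex I the highest mean was that of the accessory subunit Ndufa7 (150.6 to 238 RPKM), in complex II that of the membrane anchor Sdhd (85.9 to 111.5 RPKM) and in complex III that of the core protein Uqcrc1 (141.9 to 215 RPKM). The succinate dehydrogenase genes were the most even, with means from 70.6 RPKM for Sdhc to 98.2 RPKM for Sdhd.

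**Figure D1:**
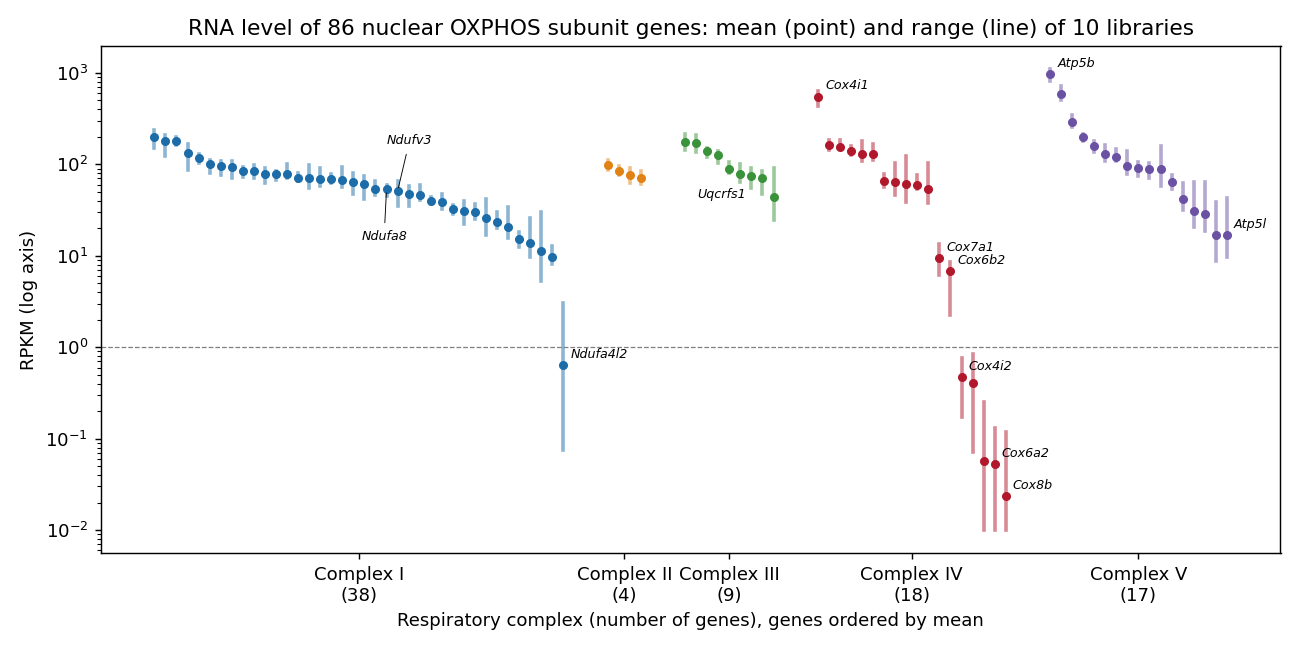
RNA level of each of the 86 genes in RPKM on a logarithmic axis, by complex, with the mean of 10 libraries as a point and the lowest to highest library as a line. Values under 0.01 RPKM are drawn at 0.01, the dashed line is at 1 RPKM, and the genes with means below it are 5 isoform genes of complex IV and Ndufa4l2.

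The isoform genes divided into widely expressed ones at high levels and tissue-restricted ones near 0. Cox4i1 was at 438 RPKM or more in every library, while Cox4i2, the isoform known from lung, was at 0.172 to 0.755 RPKM. Cox6a1 had 125.4 to 159 RPKM, against 0 to 0.130 RPKM for Cox6a2, its heart and muscle counterpart. Cox8a had 144 to 186 RPKM, while the muscle isoform Cox8b and the testis isoform Cox8c stayed at or below 0.119 and 0.2502 RPKM. Those 4 restricted genes and Cox7b2 (0.0719 to 0.843 RPKM) were the 5 members that fell under the filter and were not tested.

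A pair of isoform genes that are textbook markers of other tissues were nevertheless measurable. Cox7a1, the heart and skeletal muscle form of subunit 7a, was at 6.16 to 13.5 RPKM, beside 111.7 to 169 RPKM for the liver-type form Cox7a2 and 53.5 to 76.5 RPKM for Cox7a2l, a factor of respiratory supercomplexes. Cox6b2, the testis form of subunit 6b, was at 2.23 to 8.54 RPKM, beside 146.0 to 185 RPKM for Cox6b1. Ndufa4, named after complex I but now placed in complex IV, was at 165 to 197 RPKM. By its symbol it is counted in complex I here. Its relative Ndufa4l2 was at 0.0759 to 0.387 RPKM in all libraries but ESC control replicate 1 (3.08 RPKM) and ESC Cbx3 siRNA replicate 1 (1.36 RPKM), and it passed the filter through those alone.

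The membrane ring of the ATP synthase is built from the c subunit, for which the mouse has 3 nuclear genes that encode the same mature protein behind different targeting peptides. Their RPKM values differed widely. Atp5g3 was at 255.5 to 345 RPKM, Atp5g1 at 31.5 to 61.9 RPKM and Atp5g2 at 18.5 to 64.6 RPKM. The last 90 coding bases are shown because they encode shared protein yet differ between the 3 genes. They are from GENCODE M21 transcripts (GRCm38), on chromosomes 11, 15 and 2, and capitals mark the 24 positions at which the 3 genes are not all alike.
Atp5g1: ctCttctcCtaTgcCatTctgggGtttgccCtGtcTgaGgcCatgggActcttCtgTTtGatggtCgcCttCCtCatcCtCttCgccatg
Atp5g2: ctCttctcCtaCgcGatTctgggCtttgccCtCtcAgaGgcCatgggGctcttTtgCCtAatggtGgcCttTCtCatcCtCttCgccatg
Atp5g3: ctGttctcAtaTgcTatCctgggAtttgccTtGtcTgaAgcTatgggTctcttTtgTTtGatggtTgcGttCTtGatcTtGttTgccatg
Over this stretch Atp5g2 was 86.7% and Atp5g3 81.1% identical to Atp5g1, and Atp5g2 and Atp5g3 were 74.4% identical to each other. In the search for pseudogene copies described further on, Atp5g1 had 1 such copy, Atp5g2 had 2 and Atp5g3 had 0. The counting of reads that match several places was not stated, and the part of the copies in these RPKM values was not tested.

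Cbx3 siRNA in NPCs left most of these genes near their control level and moved 4 of them. Ndufv3, an accessory subunit at the NADH-binding tip of complex I, Cox6b2 and Uqcrfs1, the Rieske iron-sulfur protein of complex III, fell, and Cox7a1 rose. The 4 are 4.94% of the 81 tested genes, where 13.1% of all genes tested passed (limma, adjusted p under 0.05). The median difference of the 81 was -0.04 on the log2(RPKM + 1) scale, beside 0.01 for all genes, and 93.8% of them lay within 0.25 log2 units of 0, beside 75.9% of all genes. This median is smaller than the median difference between both control libraries of the 58 tested members without a pseudogene copy, 0.09, so it is within the spread between replicates.

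Ndufv3 was at 56.5 and 59.9 RPKM in control NPCs and at 37.3 and 39.5 RPKM after Cbx3 siRNA. Both siRNA libraries were below both control libraries, and the groups do not overlap. These groups did not overlap for 56.6% of all genes tested and for 35.8% of the members. The log2 difference was -0.59 (SE 0.062, adjusted p = 0.00426), and the gene passed with any library of the fit left out (adjusted p 0.0122 to 0.0363). A second transcript row of Ndufv3 was lower in level and differed the same way, with 22.6 and 23.2 RPKM in control NPCs, beside 15.6 and 16.0 RPKM with Cbx3 siRNA. After Med26 siRNA Ndufv3 was at 55.0 and 58.8 RPKM, within the range of the control libraries at its upper value and just below it at its lower.

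Cox7a1 was at 6.45 and 6.16 RPKM in control NPCs and at 9.63 and 10.5 RPKM after Cbx3 siRNA. The siRNA libraries were both higher, and the log2 difference was 0.60 (SE 0.071, adjusted p = 0.00602, or 0.0182 to 0.0433 with a library left out). The scale of log2(RPKM + 1) understates the change of genes at such low levels. Other muscle isoforms stayed near 0 in these libraries, with Cox6a2 and Cox8b at or below 0.130 RPKM. Of 6 heart and skeletal muscle markers, Actc1 made up most of the summed level, which was 16.4 and 15.3 RPKM in control NPCs, beside 15.9 and 16.1 RPKM with Cbx3 siRNA. Myh6, the heart myosin chain, rose from 1.23 and 1.14 to 2.18 and 2.02 RPKM (adjusted p = 0.0105), Myh7 was at 0.339 to 0.588 RPKM, and Ckm, Myog and Tnnt2 were at or below 0.196 RPKM. The part of these markers in the Cox7a1 result was not tested.

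Cox6b2 was at 8.25 and 8.54 RPKM in control NPCs and at 5.61 and 5.33 RPKM after Cbx3 siRNA. The groups do not overlap, and the log2 difference was -0.54 (SE 0.086, adjusted p = 0.0133). All 6 of its transcript rows were lower in both siRNA libraries than in both control libraries. It passed with 2 of the 6 libraries left out in turn and missed with the other 4 (adjusted p 0.0217 to 0.0759). Uqcrfs1 was at 79.7 and 83.5 RPKM in control and at 67.0 and 69.2 RPKM after the siRNA, a log2 difference of -0.26 (SE 0.051, adjusted p = 0.0247). Its groups do not overlap, but it missed the threshold whichever library was left out (adjusted p 0.0546 to 0.125). The germ line markers Ddx4 and Dazl summed to 9.30 and 11.2 RPKM in control NPCs and to 11.7 and 10.8 RPKM after Cbx3 siRNA. Dazl fell (-0.40, adjusted p = 0.0421), Ddx4 did not pass, and their part in the Cox6b2 result was not tested. Dazl was at only 0.564 to 1.29 RPKM in NPC libraries and would not have reached the filter on low values without the ESC libraries.

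**Figure D2:**
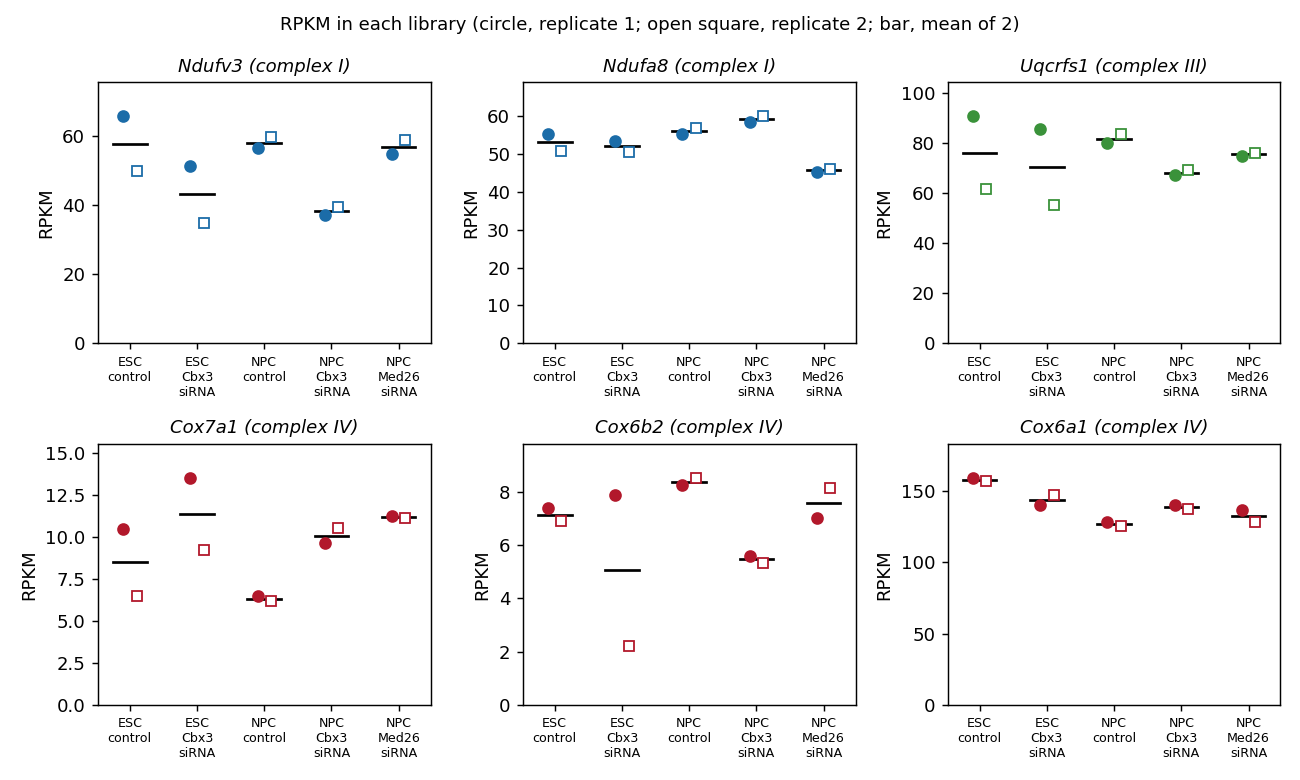
RPKM of 6 genes in each of the 10 libraries, with replicate 1 as a filled circle, replicate 2 as an open square and the mean of 2 as a bar. In NPCs Ndufv3, Cox6b2 and Uqcrfs1 are lower and Cox7a1 is higher after Cbx3 siRNA, Ndufa8 is lower after Med26 siRNA, and the ESC replicates lie far apart for Ndufv3, Cox7a1 and Uqcrfs1.

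By complex, complex I had a median difference of -0.05 with 1 of 38 genes past the threshold, complex II 0.09 with 0 of 4, complex III -0.10 with 1 of 9, complex IV 0.02 with 2 of 13 tested and complex V -0.04 with 0 of 17. All 9 complex III genes had values below 0, down to -0.26 for Uqcrfs1, and all but Uqcrfs1 missed the threshold. Among the widely expressed isoforms the differences were 0.06 for Cox4i1, 0.13 for Cox6a1, 0.02 for Cox6b1, -0.05 for Cox7a2, 0.03 for Cox7a2l, -0.10 for Cox8a and -0.03 for Ndufa4. Their 95% intervals bound these values: that of Cox4i1 ran from -0.12 to 0.23 and that of Cox6a1 from 0.00 to 0.26. The c-ring genes differed by -0.02 (Atp5g1), -0.10 (Atp5g2) and 0.07 (Atp5g3), and Atp5b by 0.01, and none of these passed.

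Markers of several cell types differed between the siRNA groups as well. The simple epithelium markers Krt8, Krt18 and Krt7 summed to 194 and 206 RPKM in control NPCs and to 480 and 518 RPKM after Cbx3 siRNA, and 3 of 3 rose. The neural progenitor markers Pax6, Sox1 and Nes summed to 47.5 and 45.2 RPKM in control and to 36.6 and 37.5 RPKM after the siRNA, and Pax6 and Sox1 fell. Pou5f1 (-0.32), Nanog (-0.30) and Sox2 (-0.55) of the 6 pluripotent markers fell too, the sum being 554 and 568 RPKM in control and 433 and 460 RPKM with Cbx3 siRNA. Of 3 neuronal markers Tubb3 (-0.39) and Elavl2 (-0.47) fell. Of 5 fibroblast markers S100a4 and Col3a1 rose and Col1a2 fell, with a sum of 7.41 and 5.61 RPKM in control and of 9.17 and 8.07 RPKM after the siRNA. Col3a1 was at only 0.118 to 0.936 RPKM in NPC libraries and reached the filter on low values through ESC libraries alone. In bulk RNA a smaller number of cells of a type and less RNA per cell cannot be told apart, and the part of these markers in the changes of Ndufv3, Cox7a1, Cox6b2 and Uqcrfs1 was not tested.

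Genes that build or feed the chain were counted from lists of known members. Of the 51 tested assembly factors, 4 rose and 2 fell after Cbx3 siRNA (11.8%, beside 13.1% of all genes). Those that rose were Ndufaf7, a methyltransferase for complex I assembly (0.40), Uqcc1, needed for complex III (0.32), and the complex IV factors Cox18 (0.29) and Cox17, a copper chaperone (0.23). Those that fell were the complex IV factors Cox20 (-0.43) and Coa8 (-0.38). Mitochondrial ribosomal proteins, which serve translation of the subunits encoded in mitochondria, gave 1 that rose (Mrpl33, 0.43) and 2 that fell (Mrpl34, -0.40 and Mrps9, -0.36) of 78 (3.85%). None of 20 tested regulators of mitochondrial biogenesis passed with limma, and 0 of them were under an unadjusted p of 0.05. In the TCA cycle, fumarase, Fh1, fell (-0.22), 1 of 15 (6.67%).

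The pyruvate and glycolysis branch had 6 of 24 tested genes lower and 0 higher after Cbx3 siRNA (25%, beside 13.1% of all genes), with a median of -0.14. Pdk1, the kinase that holds pyruvate dehydrogenase inactive, was at 34.6 and 36.9 RPKM in control and at 17.4 and 19.0 RPKM after the siRNA (-0.94, adjusted p = 0.00144). Pfkm, a phosphofructokinase, was at 20.8 and 20.6 RPKM in control and at 12.3 and 12.5 RPKM after it (-0.69, adjusted p = 0.00204). The others that fell were the phosphofructokinase Pfkl (-0.50), aldolase, Aldoa (-0.40), lactate dehydrogenase A, Ldha (-0.26), and 1 more at a smaller size. Whether the branch differed from the subunit genes was not tested.

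**Figure D3:**
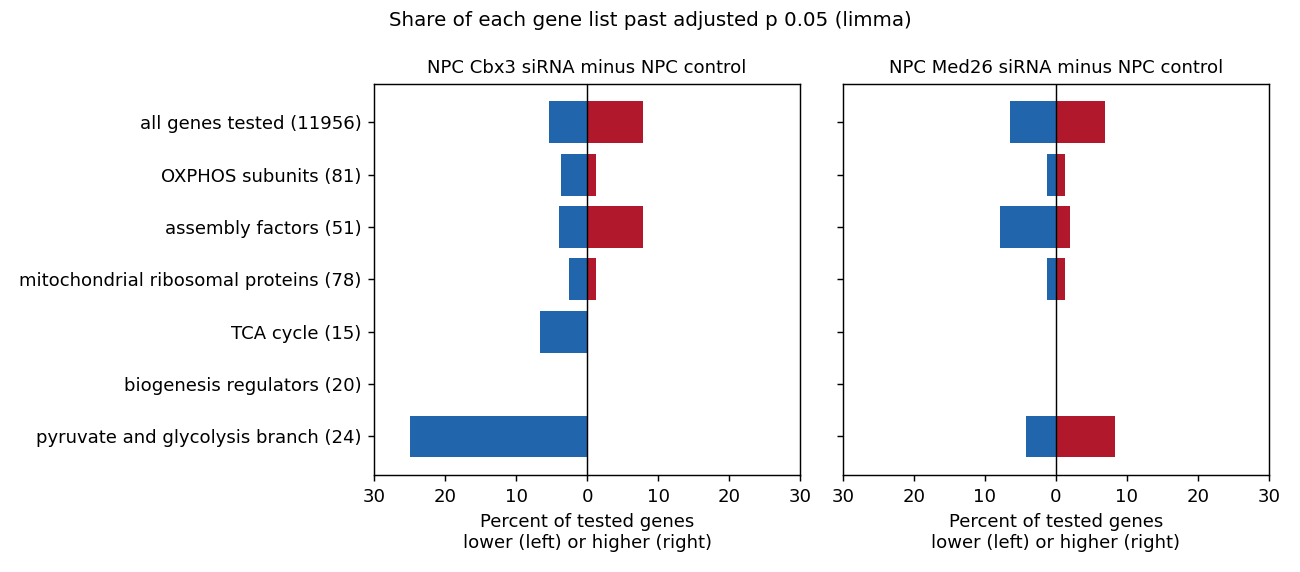
Percent of the tested genes of each list that were lower (left, blue) or higher (right, red) after Cbx3 siRNA or Med26 siRNA in NPCs, at adjusted p under 0.05 in limma, with the number tested in parentheses. The OXPHOS subunits have 3 lower and 1 higher after Cbx3 siRNA and 1 of each after Med26 siRNA, and the pyruvate and glycolysis branch has 6 lower after Cbx3 siRNA.

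Med26 siRNA moved 2 of the 81 genes in NPCs. Cox7a1 rose and Ndufa8, an accessory complex I subunit on the intermembrane side, fell. This is 2.47% of the members, where 13.4% of all genes tested passed. The median of the 81 was -0.04 and that of all genes 0.00, and 92.6% of members lay within 0.25 log2 units of 0, beside 75.8% of all genes. The Med26 and Cbx3 siRNA groups were set against the same control libraries, so an error in those would enter both comparisons.

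Cox7a1 was at 11.2 and 11.1 RPKM after Med26 siRNA, beside 6.45 and 6.16 RPKM in control, with no overlap. These groups did not overlap for 59.0% of all genes tested and for 45.7% of the members. The log2 difference of Cox7a1 was 0.74 (SE 0.071, adjusted p = 0.00428), and the gene passed with any library left out (adjusted p 0.00937 to 0.0451). The muscle markers summed to 18.04 and 17.8 RPKM in these libraries, beside 16.4 and 15.3 RPKM in control. Of the 6, Actc1 and Myh6 passed the filter on low values and neither passed the test, and the part of these markers in the result was not tested. Ndufa8 was at 55.2 and 56.8 RPKM in control and at 45.3 and 46.1 RPKM after Med26 siRNA, again with no overlap. Its log2 difference was -0.29 (SE 0.049, adjusted p = 0.0179), and it passed with 2 of the 6 libraries left out in turn (adjusted p 0.0367 to 0.113).

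Complex V had a median of -0.11 after Med26 siRNA with 0 of 17 genes past the threshold, and complex II had the one positive median, 0.08. Atp5g3 was at 291.5 and 291.6 RPKM in control and at 262.5 and 255.5 RPKM after the siRNA (-0.17, adjusted p = 0.0733), and Atp5g1 and Atp5g2 differed by -0.16 and -0.17 without passing. Atp5b was at 947 and 1034 RPKM in control and at 872 and 944 RPKM after the siRNA (-0.13, adjusted p = 0.354). After quantile normalization of the libraries this value turned to 0.10 (adjusted p = 0.0439), so no direction can be given for Atp5b. Among the isoforms, Cox4i1 differed by -0.06, Cox6a1 by 0.06, Cox6b1 by 0.01, Cox7a2 by -0.14, Cox7a2l by 0.02, Cox8a by -0.18, Cox6b2 by -0.13 and Ndufa4 by 0.00, and none passed.

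Of the 51 tested assembly factors, 1 rose and 4 fell after Med26 siRNA (9.8%, beside 13.4% of all genes). Ndufaf7 rose (0.46), and the complex IV factors Coa7 (-0.58) and Cox20 (-0.48), the complex II factor Sdhaf1 (-0.49) and the complex I factor Ndufaf8 (-0.37) fell. None of the 20 biogenesis regulators passed with limma, with 1 under an unadjusted p of 0.05, and of 15 TCA cycle genes 0 passed, with 2 under that p. Of 78 mitochondrial ribosomal proteins Mrpl10 rose (0.25) and Mrpl54 fell (-0.69), or 2.56%. Of 24 glycolysis and pyruvate genes, triose phosphate isomerase, Tpi1 (0.51), and the glucose transporter Slc2a1 (0.35) rose, and lactate dehydrogenase B, Ldhb (-0.42), fell (12.5%). Epithelial markers summed to 329 and 347 RPKM and neural progenitor markers to 54.6 and 55.5 RPKM in these libraries. Krt8, Krt18 and Krt7 rose, the pluripotent markers Sox2, Esrrb and Klf4 rose and Nanog fell, and their part in the changes of Cox7a1 and Ndufa8 was not tested. Klf4 was at only 0.352 to 0.929 RPKM in NPC libraries and reached the filter on low values through ESC libraries alone.

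The siRNA groups were also compared with each other, which tests whether the responses differ. The 81 genes gave 4 differences, or 4.94%, where 18.3% of all genes passed. Ndufv3 was lower after Cbx3 than after Med26 siRNA by 0.56 log2 units (SE 0.062, adjusted p = 0.00444), and Cox6b2, at 7.04 and 8.15 RPKM after Med26 siRNA, was lower by 0.41 (adjusted p = 0.025). Ndufa8 was at 58.5 and 59.9 RPKM after Cbx3 siRNA and thus higher than after Med26 siRNA, by 0.37 (SE 0.049, adjusted p = 0.00653), and Atp5g3, at 309 and 304 RPKM, was higher by 0.24 (SE 0.050, adjusted p = 0.0237). Quantile normalization gave 14 members, 4 higher and 10 lower, in place of 2 and 2, where 19.8% of all genes passed, and Atp5g3 was no longer among those that passed (adjusted p = 0.147). With ESC libraries added, which vary more, none of the members passed in any of the 3 comparisons between NPC groups. With a library left out in turn, Ndufv3 passed 6 of 6 times, Ndufa8 5 of 6 times, and Atp5g3 and Cox6b2 2 of 6 times each.

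Cox7a1 did not pass between the siRNA groups. Its difference was -0.14, with a 95% interval from -0.31 to 0.04 (adjusted p = 0.227), so a somewhat smaller rise after Cbx3 siRNA is compatible with the values. Uqcrfs1 was at 74.7 and 75.9 RPKM after Med26 siRNA and differed by -0.14 (adjusted p = 0.103). In the same comparison 13 of 24 glycolysis and pyruvate genes passed (54.2%, beside 18.3% of all genes), 3 higher and 10 lower after Cbx3 siRNA. Pdk1 (-0.85) and Tpi1 (-0.72) were the lowest of them and hexokinase 1, Hk1, the highest (0.48). Of 51 assembly factors 6 were higher, led by Uqcc1 (0.60), and 3 lower (17.6%, near the share of all genes). Of 78 mitochondrial ribosomal proteins 4 were higher and 3 lower (8.97%). Of 15 TCA cycle genes Fh1 (-0.23) and Idh2 (-0.32) were lower (13.3%). Of the biogenesis regulators Esrra, a nuclear receptor that drives respiratory genes (0.43), and Tfam, the mitochondrial transcription factor (0.25), were higher after Cbx3 siRNA.

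**Figure D4:**
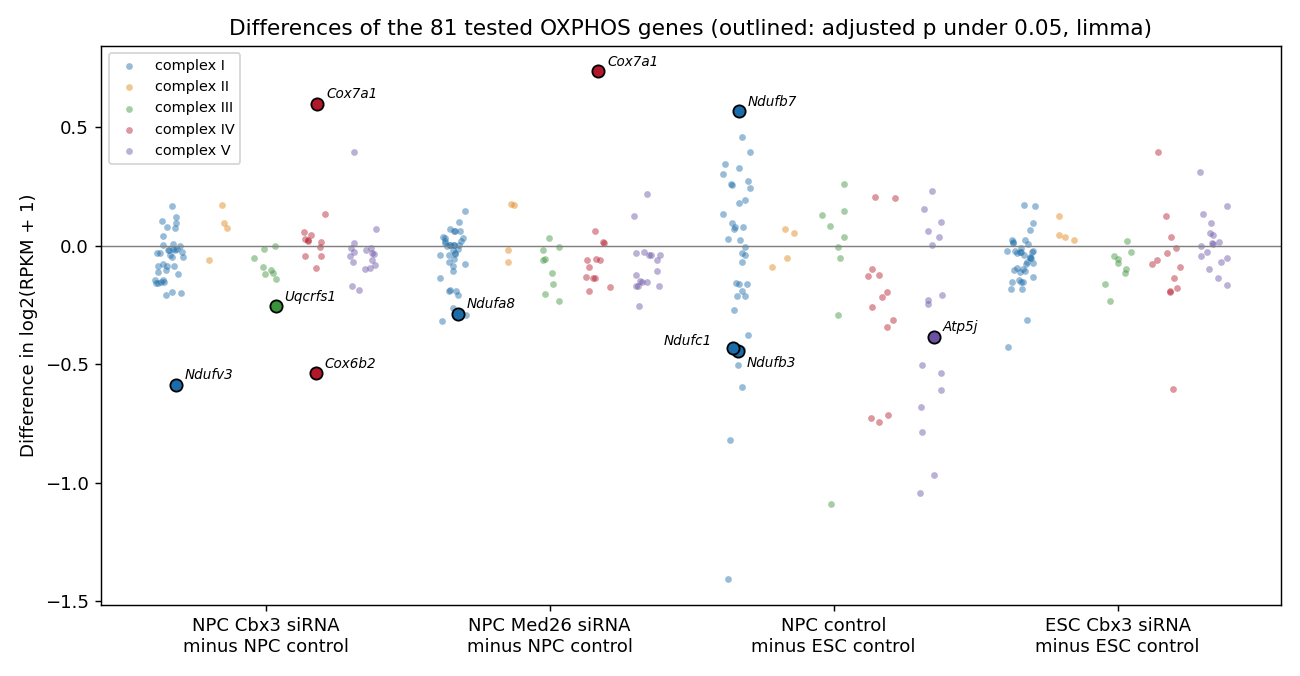
Difference in log2(RPKM + 1) of each of the 81 tested genes in 4 comparisons, with 1 point a gene, coloured by complex, and outlined and named where adjusted p was under 0.05 in limma. In NPCs after either siRNA most genes lie within 0.25 of 0, and the difference between NPCs and ESCs has the widest scatter, down to -1.41.

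Binding sites for the transcription factor NRF1, encoded by Nrf1, are known in promoters of many respiratory genes. The 8 letters GCATGCGC, the core of its motif, were looked for on both strands, each promoter counted once, in RefSeq promoters of GRCm38.p6, each holding 250 bases before and 50 after a start site. They were in 10 of the 69 members with a promoter in that table (14.5%) and in 3.05% of 27025 genes. Windows of up to 30 bases are shown for Ndufa8, which fell after Med26 siRNA, for Cox6a1, which comes up again in ESCs, and for Uqcrc1, the gene of highest mean in complex III. Capitals mark the 8 letters, and coordinates are of GRCm38.p6: chr2:36049328-36049357 on the minus strand, chr5:115349100-115349129 on the minus strand and chr9:108936669-108936697 on the plus strand.
Ndufa8: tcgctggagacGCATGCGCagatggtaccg
Cox6a1: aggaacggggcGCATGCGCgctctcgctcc
Uqcrc1: ctccgctctgcGCATGCGCagcgcggctc
Of the 5 members that moved after a siRNA in NPCs, all of which had a promoter in the table, Ndufa8 is the 1 with the letters. Nrf1 RNA was at 19.9 and 23.4 RPKM in control NPCs, 24.8 and 25.5 RPKM after Cbx3 siRNA and 19.8 and 22.7 RPKM after Med26 siRNA, and it passed in neither comparison. A match of letters is a description of the sequence and no evidence of binding here.

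In ESCs the libraries of a group differed in the respiratory genes far more than in NPCs, and this was split by whether a gene has pseudogene copies. Processed pseudogenes are copies of spliced RNA inserted elsewhere in the genome, and many small respiratory subunits have them. Copies were counted among GENCODE M21 pseudogenes at 95% identity or more over at least 100 bases, and 23 of the 81 tested members had at least 1 (28.4%, beside 11% of the tested genes searched). ESC replicate 2 was at least 1 log2 unit above replicate 1 in both siRNA groups for 8 members, or 9.88%, where 3.86% of all genes were. They were Atp5l, Atp5g2, Ndufb4, Atp5md, Cox7c, Atp5h, Uqcrb and Cox5b, and 7 of the 8 had a copy in this search. Cox5b had none that met these cuts, but a pseudogene named after it, Cox5b-ps, is annotated. Uqcrh, also counted as without a copy, has the annotated pseudogenes Uqcrh-ps1 and Uqcrh-ps2. Members without a copy are therefore those with none at this identity and length, and they may have other pseudogenes.

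Atp5l, the g subunit of the ATP synthase membrane part, had 9 copies, the most of any member. It was at 11.7 and 42.0 RPKM in ESC control, 10.4 and 42.7 RPKM in ESC Cbx3 siRNA, and 9.63 to 10.8 RPKM in the 6 NPC libraries. Both high values belong to replicate 2, and the NPC libraries sit with replicate 1. To show how alike the copies are, coding bases 91 to 150 of Atp5l are given with the same stretch of 4 of the 7 copies that cover it, from GENCODE M21 (GRCm38), with capitals at bases that differ from Atp5l. They lie on chromosomes 9 (Atp5l), 5, 11, X and 1.
Atp5l: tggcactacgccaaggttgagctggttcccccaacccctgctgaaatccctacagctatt
Gm10221: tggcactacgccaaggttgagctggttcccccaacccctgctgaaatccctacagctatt
Atp5l2-ps: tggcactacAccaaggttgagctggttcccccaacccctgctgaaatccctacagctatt
Gm4853: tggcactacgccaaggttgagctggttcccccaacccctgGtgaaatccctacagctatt
Gm6822: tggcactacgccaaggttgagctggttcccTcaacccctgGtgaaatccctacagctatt
Gm10221 is identical to Atp5l over these 60 bases, and the others shown differ at 1 or 2. The counting of reads that match several places was not stated, so reads of Atp5l and of its copies cannot be told apart in this table.

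The same division ran through the whole set. Among the 58 tested members without a copy, 50 were lower in replicate 2 in both ESC groups, with a median difference of -0.32 (ESC control) and -0.30 (ESC Cbx3 siRNA). Among the 23 with a copy, 22 were higher in replicate 2 in both groups, with medians of 0.59 and 0.66, and with 3 or more copies the medians of 5 members were 1.34 and 1.20. Cox7b, with 2 copies, was the exception and was lower in replicate 2 in both groups (77.9 against 70.1 RPKM in ESC control and 71.5 against 68.2 RPKM in ESC Cbx3 siRNA). Over the 81 genes Spearman's rho between the number of copies and the replicate difference was 0.75 in ESC control, 0.73 in ESC Cbx3 siRNA and -0.12 in NPC control, a description across genes that share libraries. Over the 11773 genes searched it was 0.29 in ESC control.

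Over all genes the medians divided the same way, with a median difference of 1.35 in ESC control for the 231 genes with 3 or more copies and -0.10 for the 10483 without. In the 3 NPC groups the members with a copy had medians from 0.05 to 0.07. The replicate 2 libraries of ESCs had an estimated 23900000 and 23300000 reads, beside 51000000 and 33300000 for replicate 1. They also had less of the pluripotent markers (summed 476 and 437 RPKM, beside 865 and 785 RPKM) and more of the simple epithelium markers (98.0 and 229 RPKM, beside 15.3 and 19.6 RPKM). The part of depth, of these markers and of the copies in the replicate difference was not tested.

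**Figure D5:**
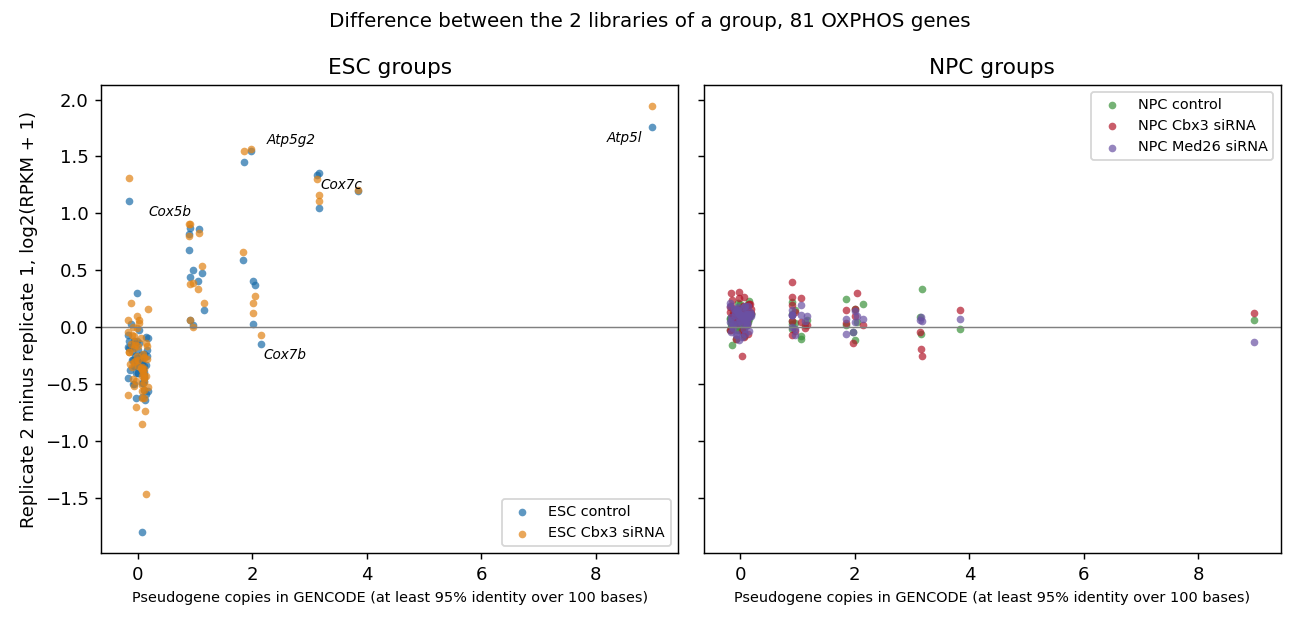
Difference between replicate 2 and replicate 1 of a group in log2(RPKM + 1) for each of the 81 genes, against the number of pseudogene copies (points are spread sideways for visibility), in ESC groups (left) and NPC groups (right). In ESCs genes without a copy lie mostly below 0 and genes with copies mostly above, up to 1.94 for Atp5l, while in NPCs no gene differs by more than 0.40.

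Cbx3 siRNA in ESCs moved none of the 81 genes past the threshold. Of all 11956 genes 0.0% passed with limma, 645 were under an unadjusted p of 0.05, and 0 of the members were. The siRNA target Cbx3 had the lowest value of all genes (-3.59) and did not pass either. The fit made no calls at this spread between ESC replicates, so it cannot show that the members were unchanged. The median of the members was -0.05, beside -0.03 for all genes, and 93.8% of them were within 0.25 log2 units of 0, beside 85.1% of all genes. The groups did not overlap for 6 of the 81 members, or 7.41%, where they did not for 21.0% of all genes. Atp5c1, the gamma subunit that turns in the ATP synthase, was above control, and Atp5pb, Cox6a1, Cox6b1, Cox8a and Ndufa5 were below it.

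The 2 lowest values and the highest value in ESCs were those of genes named above. Ndufv3 was at 65.8 and 49.9 RPKM in control and at 51.5 and 34.8 RPKM after the siRNA, with overlapping groups (-0.43, 95% interval -0.88 to 0.03, adjusted p = 0.965). Cox6b2 was at 7.40 and 6.90 RPKM in control and at 7.89 and 2.23 RPKM after the siRNA (-0.61, interval -1.51 to 0.30), where replicate 2 of the siRNA group sets the value. Cox7a1 was at 10.5 and 6.48 RPKM in control and at 13.5 and 9.17 RPKM after the siRNA (0.39, interval -0.13 to 0.91). With these, the 3 lowest and the 3 highest values included Ndufa4l2 (-0.31) on one side and Atp5md (0.31) and Ndufs5 (0.17), a subunit on the intermembrane side of complex I, on the other. The fibroblast markers of the feeder layer summed to 49.1 and 72.5 RPKM in ESC control and to 61.5 and 65.7 RPKM after Cbx3 siRNA, against 5.61 to 9.17 RPKM in NPCs, and their part in these values was not tested.

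Without both ESC replicate 1 libraries the value of Cox6b2 was -1.29 and without both replicate 2 libraries 0.08, so its direction rests on replicate 2. For Ndufa4l2 the values were 0.16 and -0.79. These values set 1 ESC library against another and are given with no test. The widely expressed isoforms and c-ring genes differed by -0.20 (Cox6b1) to 0.14 (Atp5g3) in ESCs. Whether the response to Cbx3 siRNA differed between NPCs and ESCs was asked with an interaction term. Of all genes 0.0% passed with limma, with 233 under an unadjusted p of 0.05, and of the 81 members 0 were under it. For Ndufv3 the response differed by -0.16 (interval -0.80 to 0.48), for Cox7a1 by 0.21 (-0.53 to 0.94) and for Cox6b2 by 0.07 (-1.21 to 1.35), so a response in ESCs as large as in NPCs, or none, lies within these intervals. The Cox6b2 value was 0.755 without both ESC replicate 1 libraries and -0.62 without both replicate 2 libraries, so no direction can be given. The members with the highest values were Ndufa4l2 (0.44), Ndufab1, the acyl carrier protein in complex I (0.28), and Cox6a1 (0.27). The lowest were the ATP synthase subunits Atp5h (-0.26) and Atp5k (-0.24) and, in between, Ndufs5 (-0.26). Ndufa4l2 passed the filter through the ESC replicate 1 libraries alone. Its value was -0.04 without both of them and 0.91 without both ESC replicate 2 libraries. No gene of the 5 pathway lists passed in ESCs or for this difference with limma, with 6 and 2 of them under an unadjusted p of 0.05.

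Control NPCs and control ESCs differed in 4 of the 81 genes, or 4.94%, where 16.0% of all genes passed. Ndufb7, an accessory subunit of the membrane arm of complex I, was higher in NPCs. Ndufb3 and Ndufc1, which also belong to that arm, and Atp5j, coupling factor 6 in the stalk of the ATP synthase, were lower. The question addressed by such a comparison is how the respiratory chain changes as ESCs move toward neural cells, but markers of other cells differed as well. The fibroblast markers of the feeder layer summed to 49.1 and 72.5 RPKM in ESC control and to 7.41 and 5.61 RPKM in NPC control. Of the 6 pluripotent markers Esrrb (-3.79), Zfp42 (-2.1) and Sox2 (-1.68) were lower in NPCs and passed in limma. Klf4 (-3.18) did so too, but it reached the filter on low values through ESC libraries alone. Nanog (-0.235) and Pou5f1 (0.27) did not pass. Of the 3 neural progenitor markers Nes (1.68) and Sox1 (0.58) were higher in NPCs and passed, and Pax6 (0.95) did not. The part of the mix of cells in the 4 genes was not tested.

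Ndufb7 was at 115 and 96.9 RPKM in ESCs and at 152 and 163 RPKM in NPCs, with no overlap (0.57, SE 0.144, adjusted p = 0.0376). It did not pass in limma with no filter on low values (adjusted p = 0.055). Ndufb3 was at 26.7 and 29.8 RPKM in ESCs and at 20.03 and 20.9 RPKM in NPCs (-0.44, SE 0.106, adjusted p = 0.0307), and it has 1 pseudogene copy. Ndufc1 was at 40.1 and 36.3 RPKM in ESCs and at 28.0 RPKM in both NPC libraries (-0.43, SE 0.107, adjusted p = 0.034). The 3 genes each had groups that do not overlap, and the ESC libraries after Cbx3 siRNA lay on the same side of the NPC controls as the ESC controls. The control groups did not overlap for 59.1% of all genes tested and for 53.1% of the members.

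Atp5j was at 77.3 and 72.2 RPKM in ESCs and at 54.8 and 59.3 RPKM in NPCs (-0.39, SE 0.106, adjusted p = 0.0474). With its 5 transcript rows summed the difference was -0.28 and did not pass (adjusted p = 0.117), nor did it pass with no filter on low values (adjusted p = 0.0534). It shares a stretch of the genome with Gabpa, a regulator of respiratory genes, which was lower in NPCs too (-0.43, adjusted p = 0.0371). Whether counting used strand was not stated, so reads of the 2 genes cannot be told apart where they overlap. All 4 kept their direction without both ESC replicate 1 libraries and without both replicate 2 libraries, with values of -0.52 and -0.37 for Ndufb3, -0.36 and -0.50 for Ndufc1, 0.69 and 0.44 for Ndufb7 and -0.34 and -0.43 for Atp5j. None passed when the 4 control libraries were fitted by themselves (adjusted p 0.142 to 0.189). With each of the 10 libraries left out in turn Ndufb3 passed 3 times, Ndufc1 5 times, Ndufb7 3 times and Atp5j 2 times. None of the 81 passed without either NPC control or either Med26 siRNA library, 1 without either NPC Cbx3 siRNA library, 5 without ESC control replicate 1, 2 without ESC control replicate 2, and 8 without either ESC Cbx3 siRNA library. The share of all genes that passed is not given for these fits, so the counts are no result about the members.

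Over all 81 members the median difference was -0.07, beside 0.04 for all genes. Members without a copy had a median of 0.05 and members with a copy one of -0.51. Set against ESC control replicate 1 alone, the mean of the NPC controls was lower for 40 of the 58 members without a copy (median -0.14). Against replicate 2 alone it was lower for 11 of the 58 (median 0.21). For members with a copy it was lower for 21 of 23 against replicate 1 (median -0.17) and for 23 of 23 against replicate 2 (median -0.85). The count of members past the threshold was 41 without both ESC replicate 1 libraries, 18 higher and 23 lower in NPCs, where 43.6% of all genes passed. It was 23 without both replicate 2 libraries, 3 higher and 20 lower, where 46.2% of all genes passed. In these fits the lone library of each ESC group is assumed to vary as the NPC libraries do.

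None of the isoform genes passed between control NPCs and control ESCs. Cox4i1 differed by 0.20, Cox6a1 by -0.31 (adjusted p = 0.0541), Cox6b1 by -0.12, Cox6b2 by 0.21, Cox7a1 by -0.34, Cox7a2 by -0.10, Cox7a2l by -0.22, Cox8a by -0.13 and Ndufa4 by -0.16. The Cox7a1 value was -0.03 without both ESC replicate 1 libraries and -0.65 without both replicate 2 libraries. Of the c-ring genes, Atp5g3 differed by 0.00, Atp5g1 by -0.54 (adjusted p = 0.0825) and Atp5g2 by -0.79, with Atp5g2 at 21.5 and 64.6 RPKM in ESC control and 21.6 and 21.0 RPKM in NPC control. Cycs, which encodes somatic cytochrome c, was at 3.76 and 10.4 RPKM in ESCs and at 1.62 and 2.20 RPKM in NPCs (-1.34, adjusted p = 0.101). Of the lists, 2 of 20 biogenesis regulators fell (Mterf1a, -0.75, and Gabpa) and 0 rose, 1 of 51 assembly factors rose (Pet100, 0.39) and 1 fell (Tmem126a, -0.36), of 15 TCA cycle genes Mdh2 rose (0.36) and Suclg2 fell (-0.50), of 78 mitochondrial ribosomal proteins Mrpl54 (0.66) and Mrps34 (0.55) rose and Mrpl42 (-0.70) fell, and of 24 glycolysis and pyruvate genes Pfkm rose (0.44) and the platelet phosphofructokinase Pfkp (-1.40) and hexokinase 1, Hk1 (-0.65), fell.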

How the data were processed

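RPKM values for RefSeq transcripts in 10 libraries were computed and deposited by the authors. Tools and builds listed, per the submitters' processing notes, were TopHat2 2.08 and mm9. How features were counted, the annotation release, strand and reads that match several places were not given in the sources used here. Names for the 35860 rows came from the RefSeq gene table of GRCm38.p6 (99.07% matched), which also served to find overlaps, and 334 unmatched rows were kept as they are. Overlapping genes can share reads, and 27 of the 86 members overlap another gene.

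Fits were made on log2(RPKM + 1) by limma 3.58.1, run in R 4.3.3 (empirical Bayes with trend, two-sided, Benjamini-Hochberg over 11956 genes, threshold 0.05) on genes reaching 1 RPKM in 2 or more libraries. NPC comparisons used the 6 NPC libraries and all others used the 10. RPKM are not counts: 67.0% to 77.4% of low values were within 0.1 of a whole read, too few to recover reads, so no count test was run. Depth estimates cover these steps only. The fit was tested on simulated data.

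The members, gene lists and tests were chosen with earlier results of these data known. Named genes are the isoform and c-ring genes, the gene of highest mean in each complex, the siRNA targets and, in each comparison, members past the threshold or else the 3 largest differences each way, with up to 5 list genes each way. Atp5a1, the Sdh genes, Cycs, Nrf1 and genes named for replicate differences or overlap were chosen after their values were seen. Alternatives were the pseudocount, the filter, quantile normalization, summed transcript rows, the libraries in the fit, each library left out and a replicate block. The search for pseudogene copies, by blastn against GENCODE M21, and the fits without both libraries of an ESC replicate were chosen after seeing the data.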

Additional observations from a re-analysis of the deposited data

Results flagged for a closer look

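Cox6a1, the widely expressed form of subunit 6a of complex IV, lay above control after Cbx3 siRNA in both NPC libraries and below control in both ESC libraries. It was at 128.5 and 125.4 RPKM in control NPCs and at 141 and 138 RPKM after the siRNA, and at 159 and 157 RPKM in control ESCs and at 140 and 147 RPKM after it. The response in NPCs minus that in ESCs was 0.27 log2 units (95% interval -0.03 to 0.57), and the interaction term did not pass (limma, adjusted p = 1). Such opposite values in every library were seen in 1 of 81 members (1.23%) and in 1.21% of all genes.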

How the results depend on the processing

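The counts of members past the threshold were 4, 2, 4 and 4 for Cbx3 siRNA, Med26 siRNA, Cbx3 against Med26 siRNA and NPC against ESC control, and 0 in ESCs and for the response NPC minus ESC. With a library left out in turn they ranged from 2 to 3, 1 to 2, 1 to 4, 0 to 8, 0 to 0 and 0 to 0. For Med26 siRNA the count was 1 without a control or Med26 siRNA library. For Cbx3 against Med26 siRNA it was 1 or 2 without either Med26 siRNA library or Cbx3 siRNA replicate 2. The share of all genes that passed is not given for these fits, so the ranges are no result about the members. With all 10 libraries in the NPC fit the member counts were 0, 0 and 0, and with the 4 control libraries alone 0 for NPC against ESC. Without a filter that comparison gave 2. Quantile normalization gave 5 for Med26 siRNA (14.8% of all genes) and 14 for Cbx3 against Med26 siRNA (19.8%), and it reversed Atp5b, to 0.10 for Med26 siRNA against control and -0.10 for Cbx3 against Med26 siRNA. Without both ESC replicate 1 libraries NPC against ESC gave 41 and ESC Cbx3 siRNA 1; without both replicate 2 libraries these gave 23 and 1, and the response NPC minus ESC 1. Of all genes 43.6% and 0.585%, and then 46.2%, 0.652% and 1.41%, passed in these fits, in which each ESC group is 1 library assumed to vary as the NPC libraries do, so they are no support for a call. Among members with a pseudogene copy the counts were 0, 0, 0 and 1. The cause of these changes was not tested, except that the last counts have fewer members. Across all genes, the fit of 10 libraries passed 1, 15 and 120 genes in the 3 NPC comparisons, where the 6 NPC libraries passed 1570, 1597 and 2185. Replicate numbers are shared by the groups, but no label ties same-numbered libraries to a culture or day. Their deviations from the group means correlated at 0.892 in ESCs and at 0.423 to 0.461 in NPCs, a hint from 2 numbers only. With a replicate block the counts were 14, 25, 27, 53 and 2, the last being Ndufv3 (adjusted p = 0.00814) and Cox7a1 (adjusted p = 0.0224) in ESCs, and the response NPC minus ESC stayed at 0. Of all genes 29.2%, 31.0%, 35.4%, 57.8% and 6.8% passed with the block, and 0.0502% for that response. With 2 libraries a group, small differences in log2 units were near the limit of what could be called.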

Other observations

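A heptamer that stood out in an earlier look at these data, GAGAGTT, was in the searched transcript of 6 of the 86 members (6.98%, beside 18.3% of tested genes searched). None of the 6 passed after Cbx3 siRNA in NPCs. Transcript length was not taken into account and the heptamer was picked from these same data. No conclusion is therefore drawn from these shares or from the 6 genes. The transcript of Ndufv3 that was searched does not hold it.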
